A study of Rattus norvegicus with 48 samples.

Results

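The ABCA and ABCG families hold the membrane pumps that use ATP to move sterols and phospholipids. ABCA1 and ABCG1 pass cholesterol and phospholipid out of the cell to apolipoproteins and to high-density lipoprotein, and both genes are classic targets of the liver X receptors, which are switched on by oxidized cholesterol. Other ABCA proteins work inside the cell, on lysosomes, endosomes or secretory organelles. At the blood-brain barrier, brain cholesterol is kept apart from that of the plasma, and efflux pumps of the endothelium are among the proteins that handle it there.

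The genes described here are 8 such transporters, listed by name with earlier results of these data known: Abca1, Abca2, Abca3, Abca5, Abca7, Abca8a, Abcg1 and Abcg4. Their symbols were matched to Ensembl identifiers through the study's supplementary tables. Features with a read in every one of 12 samples were tested, 13050 of the 32624 in the files, and all 8 genes were among them.

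The study asked how fasting changes the RNA of cerebral endothelial cells (CECs). Male Wistar-Han rats either ate ad libitum (AL) or went without food for 1 day (F1), 2 days (F2) or 3 days (F3), and the labels name no other treatment or genetic change in any group. CECs came from pooled cerebral cortexes. Each isolation drew on 4 rats, with tissue of 2 cortices digested together. The cells were purified on magnetic columns by removing CD11b+ cells and retaining CD31+ cells. Polyadenylated RNA of 3 samples per group from separate experiments, named i, j and k, was sequenced in 4 technical replicates each.

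The samples held between 20718644 and 25960874 assigned reads. The endothelial gene Pecam1, which encodes CD31, had a mean normalized read count of 33089 ± 2171 in AL and 33891 ± 767 in F3 (SD, n = 3). In F1 it had 37034 ± 1548, above every AL sample, and in F2 32113 ± 218. The F1 difference did not pass (log2 fold change 0.16, adjusted p = 0.233 with edgeR's quasi-likelihood test). For 28.7% of all genes F1 and AL did not overlap. A normalized read count is a read count scaled to a common library size. With 8 endothelial markers tested, Slc2a1 was higher in F3 than in AL, while Slco1a4, Slco1c1 and Acvrl1 were lower (adjusted p at most 0.05). At the same threshold Slc2a1 was higher and Slco1a4 lower in F1 than in AL, and none passed in F2. Of 12 listed microglia and macrophage markers, the 7 with an identifier summed to between 64.1 and 148 normalized read counts per sample, and none of them was at 0. Of the other marker lists, 4 perivascular fibroblast markers summed to between 1708 and 2639, 4 pericyte and smooth muscle markers to between 2483 and 6871, and 3 astrocyte markers, most of it Apoe, to between 40308 and 58163. Markers without an identifier were not analysed here. In such bulk samples, fewer cells of a type and less RNA per cell cannot be told apart. In F1 sample k, technical replicate d carries a label conflict on the length of the fast (1 day in its title, 2 days in its treatment field), and it was kept with the sample its title names. Leaving it out changed no call on the 8 genes.

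Abca3 was the only one of the 8 genes that passed the test in any comparison, with lower RNA after 3 days of fasting. Abca7 lay above every AL sample in every fasted sample but by small amounts that did not pass the test, and Abca8a had its lowest values after 1 day, at very few reads and without passing the test. The cholesterol efflux genes Abca1 and Abcg1 did not pass in any comparison, nor did Abca2, Abca5 or Abcg4. The plot of the 8 genes by sample shows these patterns.

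**Figure D1:**
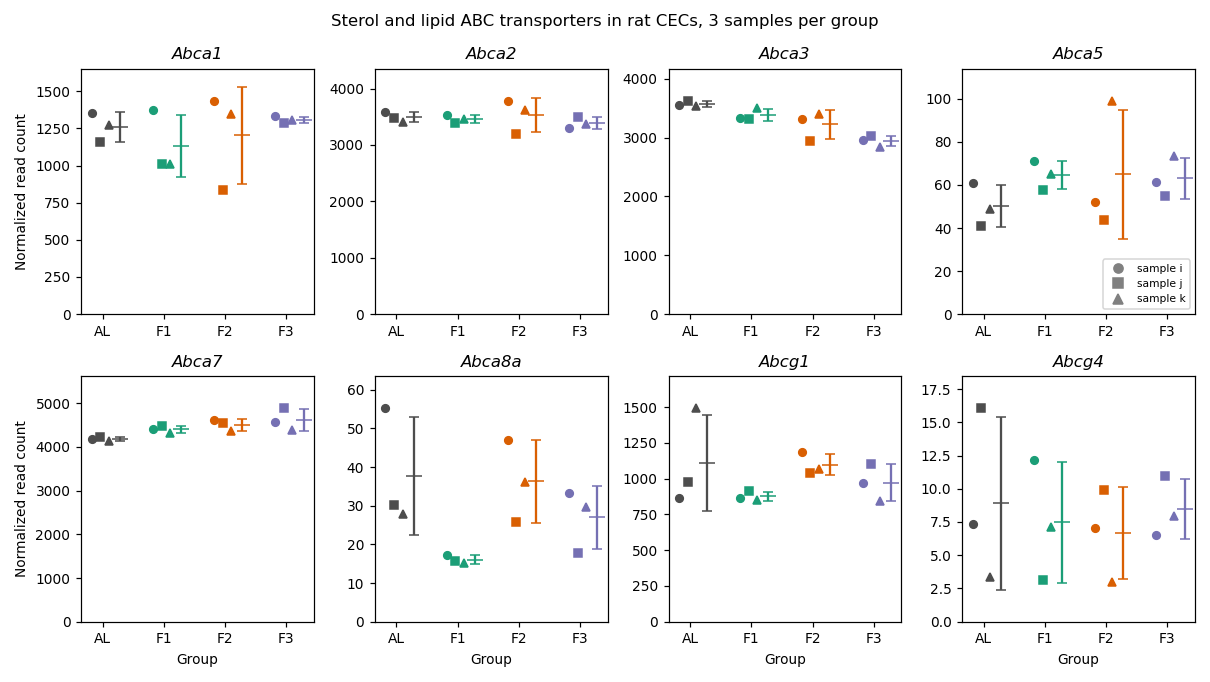
Normalized read counts of the 8 genes (vertical axes, each from 0) in the 4 groups (horizontal axes), with 1 point per sample and the group mean ± SD to the right of the points (n = 3). Abca3 steps down to between 2849 and 3030 in F3, Abca7 rises above its AL range of 4135 to 4215, and Abca8a dips to between 15.2 and 17.3 in F1.

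Abca1, the exporter that loads cholesterol and phospholipid onto lipid-poor apolipoproteins, had normalized read counts of 1353, 1157 and 1271 in AL samples i, j and k. The F1 samples had 1373, 1010 and 1009, the F2 samples 1437, 832 and 1344, and the F3 samples 1331, 1288 and 1306. The groups overlapped throughout, with F2 sample j the lowest of the 12 and F2 sample i the highest. The LFC (Log2 fold change) against AL was -0.16 (SE 0.18) in F1, -0.07 (SE 0.18) in F2 and 0.05 (SE 0.17) in F3. The 95% interval in F3 ran from -0.33 to 0.43. The adjusted p was 0.672, 0.911 and 0.889 (Benjamini-Hochberg adjusted over all genes tested, from edgeR's quasi-likelihood fit, as for every adjusted p below). Without F2 sample j the F2 value turned to 0.14, with an adjusted p of 0.634.

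The promoter of Abca1 is shown because it holds the kind of element through which liver X receptors act. It is the stretch of 250 bases before the gene start in RefSeq's GRCr8 build, chr5:72596474-72596723 on the minus strand, and capitals mark the letters searched for.
Abca1: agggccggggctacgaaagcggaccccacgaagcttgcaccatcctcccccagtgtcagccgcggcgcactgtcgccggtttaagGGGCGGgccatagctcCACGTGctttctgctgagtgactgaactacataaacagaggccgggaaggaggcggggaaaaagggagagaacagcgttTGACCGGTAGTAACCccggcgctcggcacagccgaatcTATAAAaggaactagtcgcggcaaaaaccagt
From left to right the capitals are a GC box (GGGCGG) that begins 165 bases before the start, an E box (CACGTG) at 149, a spaced repeat (TGACC, 5 bases, TAACC) of the liver X receptor type at 70 and a TATA box (TATAAA) at 32, with no overlap among them. In exactly these letters, the spaced repeat was found on either strand in 9 of 27457 promoters of the same length (0.0328%), the E box in 5.79% and the TATA box in 13.1%. The form with TGACC as its second part was in 17 promoters and in none of the 6 members with an entry. Other forms of the repeat were not searched, so that the share of promoters with any repeat of this type is not known. These are matches of letters, and no binding was measured.

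Abcg1, whose product passes cholesterol on to high-density lipoprotein, had 864, 976 and 1492 in the AL samples. The F1 samples were close together at 863, 914 and 851, the F2 samples had 1184, 1043 and 1069, and the F3 samples 971, 1100 and 843. AL sample k was the highest of the 12, and the AL range overlapped with that of every fasted group. The LFC against AL was -0.34 (SE 0.17, adjusted p = 0.276) in F1, -0.01 (SE 0.17, adjusted p = 0.984) in F2 and -0.19 (SE 0.17, adjusted p = 0.525) in F3. Without AL sample k these became -0.07, 0.26 and 0.08, so that the F2 and F3 values changed sign. F2 lay above F1 without overlap, with an LFC of 0.33 (SE 0.17) and an adjusted p of 0.344.

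Abcg4, the close relative of ABCG1 best known from neurons and glia, was at the edge of detection. It had between 3 and 16 reads in a sample, with a group mean of 8.92 ± 6.50 normalized read counts in AL and 8.46 ± 2.27 in F3 (SD, n = 3). The LFC of F3 against AL was -0.09, with a 95% interval from -1.31 to 1.12 and an adjusted p of 0.942.

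Abca3, which moves phospholipid into lamellar bodies and is known for surfactant in the lung, had 3562, 3630 and 3531 normalized read counts in AL. It had 3336, 3321 and 3510 in F1, 3317, 2949 and 3409 in F2, and 2955, 3030 and 2849 in F3. All 9 fasted samples were below all AL samples, and the F3 samples were also below all F1 samples, while F2 sample j lay within the F3 range. The LFC of F3 against AL was -0.28 (SE 0.07, 95% interval from -0.43 to -0.13), a level 17.6% lower, with an adjusted p of 0.0167. In F1 and F2 the LFC was -0.08 (SE 0.07, adjusted p = 0.580) and -0.15 (SE 0.07, adjusted p = 0.383). F3 against F1 gave -0.20 (SE 0.07) with an adjusted p of 0.996, in a comparison where no gene passed.

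The Abca3 call in F3 was close to the threshold. It was lost without AL sample i (adjusted p = 0.0507), without F3 sample i (0.0627) and without F3 sample k (0.0736), where the LFC stayed between -0.28 and -0.26. It held in 17 of 20 alternatives, with DESeq2 giving an adjusted p of 0.00213. Several of those 17 left out only F1 or F2 reads and so kept all AL and F3 samples. The 4 fibroblast markers summed to between 2481 and 2639 normalized read counts in AL and to between 1708 and 2110 in F3. Most of that difference was Adamtsl2, an extracellular matrix gene, which fell from a mean of 1648 to 996 (LFC -0.73, adjusted p = 0.00110). The other 3 did not pass: Bgn had means of 544 in AL and 542 in F3, Apod 364 and 320, and Aldh1a2 5.65 and 12.9. Their part in the Abca3 result was not tested.

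Abca7, a phospholipid transporter and a risk gene for Alzheimer's disease, had 4182, 4215 and 4135 in AL, the tightest group of any member. It had 4410, 4480 and 4323 in F1, 4618, 4538 and 4353 in F2, and 4565, 4882 and 4396 in F3. All 9 fasted samples lay above all AL samples, and the 3 fasted groups overlapped with each other. The LFC was 0.08 (SE 0.06), 0.11 (SE 0.06) and 0.14 (SE 0.06) in F1, F2 and F3, with adjusted p-values of 0.554, 0.511 and 0.172. None passed, and in F3 the value stood for a level 10.5% higher with a 95% interval from 0.01 to 0.28 on the log2 scale. The AL samples are shared by the 3 comparisons, and how many of all genes had all fasted samples on one side was not counted. In the RefSeq annotation 1 long noncoding RNA gene overlaps Abca7, and because the strand setting of the counting is not stated, reads of both cannot be told apart.

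The reads of Abca3 and Abca7 within a sample give a ratio that needs no scaling between samples. This pair was chosen after the values were seen and the ratio was not tested. It was 0.852, 0.861 and 0.854 Abca3 reads per Abca7 read in AL, 0.757, 0.741 and 0.812 in F1, 0.718, 0.650 and 0.783 in F2, and 0.647, 0.621 and 0.648 in F3. The group mean was 0.856 ± 0.00501 in AL, 0.770 ± 0.0373 in F1, 0.717 ± 0.0666 in F2 and 0.639 ± 0.0156 in F3 (SD, n = 3). Every fasted sample was below every AL sample. That follows from the choice of the pair, as fasted samples lay below AL for Abca3 and above AL for Abca7. Every F3 sample was also below every F1 and F2 sample, the nearest F2 sample (j) by a narrow margin. Ratios of other gene pairs were not computed.

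**Figure D2:**
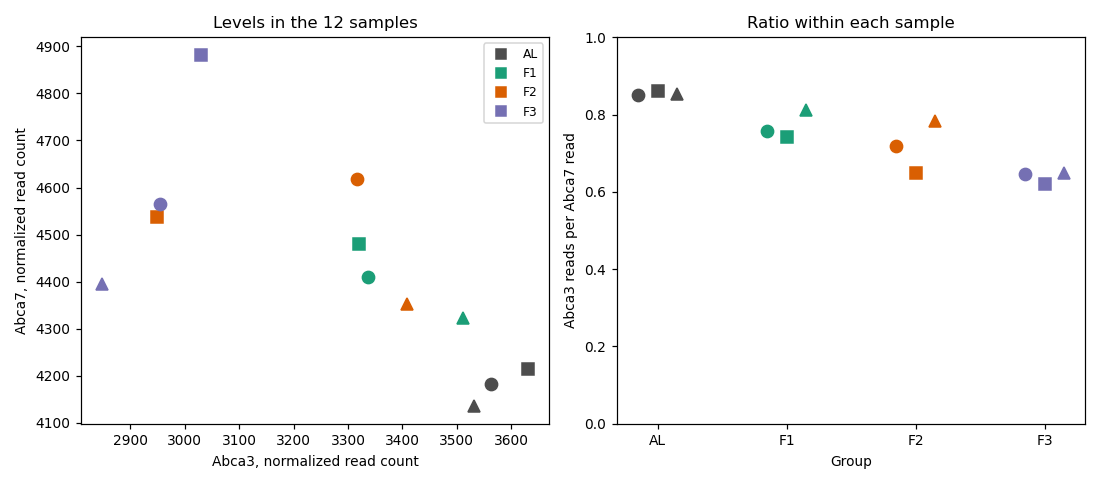
Left, normalized read counts of Abca3 (horizontal axis) and Abca7 (vertical axis; neither axis starts at 0) in the 12 samples, with colors for the groups and circles, squares and triangles for samples i, j and k. Right, reads of Abca3 per read of Abca7 in each sample (vertical axis, from 0) by group, which fall from between 0.852 and 0.861 in AL to between 0.621 and 0.648 in F3.

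The promoters of Abca3 and Abca7 are set side by side because these genes had all fasted samples on one side of the AL samples, in opposite directions. The share of all genes with such a pattern was not counted. They are the 250 bases before each gene start in GRCr8, at chr10:13886834-13887083 on the plus strand for Abca3 and at chr7:10361990-10362239 on the minus strand for Abca7.
Abca3: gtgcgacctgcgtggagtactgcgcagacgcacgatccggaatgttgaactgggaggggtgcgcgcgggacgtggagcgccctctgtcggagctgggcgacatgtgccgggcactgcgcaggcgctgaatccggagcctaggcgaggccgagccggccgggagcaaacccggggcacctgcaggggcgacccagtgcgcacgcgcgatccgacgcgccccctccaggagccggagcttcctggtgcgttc
Abca7: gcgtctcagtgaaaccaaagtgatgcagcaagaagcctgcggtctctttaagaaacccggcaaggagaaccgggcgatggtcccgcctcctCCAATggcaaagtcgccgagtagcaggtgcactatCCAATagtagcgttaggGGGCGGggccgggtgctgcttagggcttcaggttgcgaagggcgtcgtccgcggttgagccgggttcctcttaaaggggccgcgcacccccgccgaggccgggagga
Capitals mark the same letters as in Abca1 and, in addition, CCAAT boxes (CCAAT), all searched on both strands. Abca3 held none of the motifs. Abca7 held CCAAT boxes that begin 159 and 124 bases before the start and a GC box at 107. CCAAT was present in 34.3% of 27457 promoters and GGGCGG in 32.4%. Both stretches are rich in G and C, with 71.6% in Abca3 and 62.8% in Abca7 beside a median of 52.0% over all promoters.

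Abca2, an endolysosomal lipid transporter linked to sphingolipids and myelin, varied little. It had 3592, 3485 and 3409 in AL, 3539, 3392 and 3468 in F1, 3788, 3201 and 3625 in F2, and 3293, 3505 and 3381 in F3. The groups overlapped in every comparison. The LFC against AL was between -0.04 and 0.02, and its 95% interval in F3 ran from -0.20 to 0.11, with adjusted p-values of 0.947, 0.944 and 0.765 for F1, F2 and F3. The signs in F1 and F2 turned under some alternatives, as listed under the dependence on processing.

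Abca5, a lysosomal member of the family, had between 41 and 99 reads in a sample. The group means were 50.2 ± 9.87 in AL, 64.6 ± 6.67 in F1, 65.0 ± 30.0 in F2 and 63.1 ± 9.53 in F3 (SD, n = 3), with F2 sample k at 99.2 the highest of the 12. Every fasted group overlapped with AL. The LFC was 0.36 (SE 0.28), 0.37 (SE 0.28) and 0.32 (SE 0.28), with adjusted p-values of 0.518, 0.635 and 0.520.

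Abca8a, a sterol and lipid transporter in a cluster of related genes, had 60, 30 and 25 reads in AL samples i, j and k, or 55.2, 30.1 and 27.8 normalized read counts. In F1 it had 17, 15 and 15 reads (17.3, 15.8 and 15.2 normalized), in F2 47.1, 25.8 and 36.1, and in F3 33.4, 17.9 and 29.8. The F1 samples were below the samples of every other group. The LFC of F1 against AL was -1.23 (SE 0.35, 95% interval from -1.99 to -0.48) and missed the threshold with an adjusted p of 0.0522. The same gene passed in 7 of 20 alternatives, DESeq2 among them (adjusted p = 0.0252), with adjusted p-values from 0.0252 to 0.244 over the alternatives. Without AL sample i, the highest of the 12, the LFC was -0.84. F2 lay above F1 with an LFC of 1.17 (SE 0.35) and an adjusted p of 0.109, and F3 lay above F1 with 0.75 (SE 0.36) and an adjusted p of 0.996.

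In the RefSeq annotation Abca8a lies next to its relatives Abca8 and Abca9. The authors discarded reads with several matches, so that its count may be split or reduced where these genes are alike, and its values are uncertain for that reason. Abca8 had a mean of 20.5 ± 9.64 normalized read counts in AL and 13.3 ± 7.22 in F1 (LFC -0.64, adjusted p = 0.610). Abca9 had 30.1 ± 13.8 and 25.1 ± 11.9 (LFC -0.28, adjusted p = 0.792). Of the markers of other vessel cells, the 4 fibroblast markers summed to between 1946 and 2211 in F1, below the 2481 to 2639 of AL. None of these 4 passed in F1, where Adamtsl2 had a mean of 1317 beside 1648 in AL (LFC -0.32, adjusted p = 0.108). Bgn and Apod also had lower means in F1 than in AL, and Aldh1a2 a higher one. The 4 pericyte markers summed to between 3020 and 3401 in F1, within the 2701 to 6512 of AL. The mean pericyte sum was 4344, 3160, 5599 and 4472 in AL, F1, F2 and F3, also lowest in F1. Among the AL samples it was highest in sample i, at 6512, as Abca8a was. The mean fibroblast sum was 2562, 2044, 2436 and 1871, lowest in F3. The part of these markers in the Abca8a result was not tested.

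**Figure D3:**
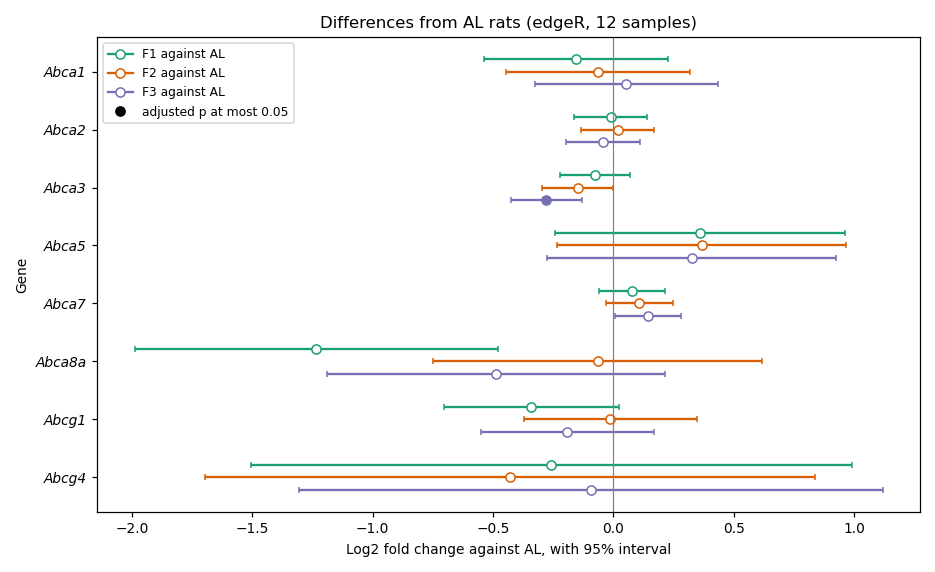
LFC of the 8 genes (vertical axis) in F1, F2 and F3 against AL (horizontal axis, log2 scale), as points with 95% intervals from edgeR fitted on 12 samples. The filled point, Abca3 in F3 at -0.28, is the one with an adjusted p of at most 0.05, and the widest intervals belong to Abcg4 and Abca8a.

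The calls on the 8 transporters were set beside those on all genes. In F1 against AL 0 of 8 passed with edgeR, where 6.56% of all genes tested did, 1 had an unadjusted p under 0.05 (Abca8a) beside 20.6% of all genes, and DESeq2 called 1 beside 9.51%. In F2 against AL 0 passed against 0.858% of all genes, 1 had an unadjusted p under 0.05 (Abca3) beside 12.8%, and DESeq2 called 0 beside 2.75%. In F3 against AL 1 of 8 passed, Abca3, beside 12% of all genes, 2 had an unadjusted p under 0.05 (Abca3 and Abca7) beside 26%, and DESeq2 called 1 (Abca3) beside 14.4%. These counts of members were near the background.

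Between the days of fasting no member passed. F2 against F1 gave 0 of 8 with edgeR beside 1.43% of all genes, 1 with an unadjusted p under 0.05 (Abca8a) beside 17.3%, and 0 with DESeq2 beside 4.72%. F3 against F2 gave 0 beside 5.94%, with 0 at an unadjusted p under 0.05 beside 22% and 0 with DESeq2 beside 9.41%. F3 against F1 gave 0 beside 0% of all genes, with 1 at an unadjusted p under 0.05 (Abca3) beside 4.44% (579 genes). There DESeq2 called 0 members beside 0.184% (24 genes). The joint test of the 4 groups called 0 members beside 10.1% of all genes, with 2 at an unadjusted p under 0.05 (Abca3 and Abca8a) beside 24.8%, and DESeq2 called 1 (Abca3) beside 16%. These counts of 8 genes are near the background.

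The groups did not overlap for 3 members in F1 against AL (Abca3, Abca7 and Abca8a) beside 28.7% of all genes. They did not overlap for 2 members in F2 against AL and for the same 2, Abca3 and Abca7, in F3 against AL, beside 15.5% and 35.6%. Between days it was 2 members in F2 against F1 (Abca8a and Abcg1) beside 21.8%, 0 in F3 against F2 beside 26.8%, and 2 in F3 against F1 (Abca3 and Abca8a) beside 13.0%. The median LFC of the members against AL was -0.12, -0.04 and -0.07 in F1, F2 and F3, beside -0.00431, -0.00848 and -0.00527 over all genes.

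The members differed in how far samples of 1 group lay apart. For Abca7 the spread within groups was 3.34% of the level and for Abca3 4.34%, beside counting errors of 1.50% and 1.75%. For Abca1 and Abcg1, the pair of cholesterol exporters, it was 16.3% and 18.2%, which is 5.72 and 5.77 times their counting errors of 2.85% and 3.15%. Each of these fell when 1 sample was left out but stayed above the counting error. Without F2 sample j the spread of Abca1 was 9.51%, and without AL sample k that of Abcg1 was 8.89%. The median of all genes was 11.1% beside 4.70%. The 4 technical replicates of a sample scattered no more than counting, with chi-square to degrees of freedom ratios between 0.704 and 1.23, and the spread of Abca1 and Abcg1 was thus seen between samples. F2 sample j was the lowest of its group for 6 of the 8 genes.

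**Figure D4:**
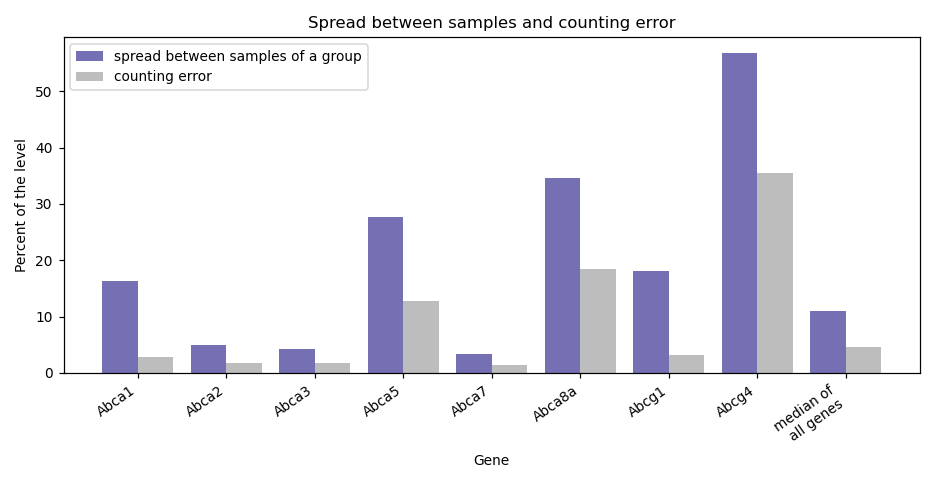
Spread between samples of a group (pooled SD over the 4 groups) and counting error, both in percent of the level (vertical axis, from 0), for the 8 genes and the median of all genes tested (horizontal axis). The bars of Abca1 and Abcg1 stand at 16.3% and 18.2% over counting errors of 2.85% and 3.15%, while those of Abca2, Abca3 and Abca7 stand at 4.93%, 4.34% and 3.34%.

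The genes whose pattern over the 12 samples was most like that of a member were looked for among 1146 named genes with a mean of at least 100 normalized read counts, which are mostly those early in the alphabet. The measure was Pearson's r of log2 CPM, read counts scaled to library size, given as a description. Abca7 was closest to B3gnt2 (r = 0.91) and Anapc16 (r = 0.86), both of which rose in F3 (LFC 0.31, adjusted p = 0.0148 and LFC 0.36, adjusted p = 0.00954). B3gnt2 builds poly-N-acetyllactosamine chains, and Anapc16 encodes a subunit of the anaphase-promoting complex. For Abca3, Arap3 was among the 2 closest genes (r = 0.83).

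For the other members with enough reads, Abca1 was closest to Arfgef1 (r = 0.90) and Akap11 (r = 0.89), Abca2 to Cblb (r = 0.96) and Abi2 (r = 0.83), and Abcg1 to Ap2a2 (r = 0.83) and Bop1 (r = 0.78). None of these 6 genes passed in F1, F2 or F3 against AL, where their adjusted p-values were between 0.248 and 0.933.

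Of 103 other genes in the lists of sterol and phospholipid handling, 28 had an identifier, which gave 29 tested genes because Atp8a1 stands for a pair of identifiers. With edgeR 0 of them passed in F1 and 0 in F2 against AL, 4 and 7 had an unadjusted p under 0.05 beside 20.6% and 12.8% of all genes, and DESeq2 called 0 in both. In F3 against AL 2 of 29 passed, both lower, beside 12% of all genes, and 5 had an unadjusted p under 0.05 beside 26%. Acat2, the cytosolic thiolase at the first step of sterol synthesis, fell from 345 ± 49.6 to 232 ± 48.3 normalized read counts (SD, n = 3, LFC -0.57, adjusted p = 0.0237), and Atp9a, a putative phospholipid flippase of endosomes, from 3539 ± 154 to 3002 ± 125 (LFC -0.24, adjusted p = 0.0309). Neither passed when AL sample j or F3 sample i was left out (adjusted p = 0.0960 and 0.103 for Acat2, 0.0734 and 0.133 for Atp9a). Atp9a was also lost without AL sample i (0.114), without F3 sample j (0.0906) and without a filter on low counts (0.0756).

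Acat2 was the only one of 20 listed sterol synthesis genes with an identifier, so that the pathway as a whole was not analysed here. The lists of sterol sensing and nuclear receptors, lipoprotein uptake and sterol hydroxylation had none. Of 11 tested phospholipid flippase genes 1 passed in F3, with a lower level (Atp9a), beside 12% of all genes. The median LFC of the list was -0.03 there. None of 9 apolipoprotein and lipid transfer genes passed against AL with edgeR. In F1, F2 and F3, 0, 4 and 1 of them had an unadjusted p under 0.05, beside 20.6%, 12.8% and 26% of all genes. The most abundant of them, Apold1, a gene of endothelial cells named for its likeness to apolipoprotein L, had 98646 ± 21689 in AL and 98101 ± 6196 in F3 (SD, n = 3, LFC -0.01, adjusted p = 0.981). None of the 7 other ABCA and ABCG genes passed, with 1, 1 and 2 at an unadjusted p under 0.05 beside the same shares of all genes. The most abundant of the 7 was the drug efflux gene Abcg2, with 21901 ± 2556 in AL and 25738 ± 3324 in F3 (LFC 0.23, adjusted p = 0.266).

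The 4 liver X receptor targets that could be tested, Abca1, Abcg1, Abcg4 and Apoe, had 0 calls against AL in each group with edgeR and with DESeq2. With edgeR they also had 0 at an unadjusted p under 0.05, beside 20.6%, 12.8% and 26% of all genes in F1, F2 and F3. Their median LFC was -0.21 in F1, -0.04 in F2 and -0.09 in F3. The most abundant, Apoe, the main apolipoprotein of the brain and an acceptor of exported cholesterol, had 41907 ± 613 in AL and 39439 ± 2517 in F3 (SD, n = 3, LFC -0.09, adjusted p = 0.706). Arv1, which takes part in sterol traffic from the endoplasmic reticulum, was the only tested gene of the list on intracellular traffic and had 166 ± 11.3 in AL and 161 ± 5.70 in F3 (SD, n = 3, LFC -0.05, adjusted p = 0.861).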

How the data were processed

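The deposited values are raw read counts per gene, as whole numbers. The authors trimmed the reads, used STAR for alignment to the rat genome (Rnor_6.0 per the labels, Ensembl version 91), discarded reads with more than 1 match and counted reads on exons with HTSeq 0.5.3. Libraries were strand-specific, and the strand setting of the counting is not given in the sources used here.

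The 4 technical replicates of each of 12 samples were summed. The samples held 20718644 to 25960874 reads. Genes with a minimum of 1 read per sample entered a quasi-likelihood test (edgeR 4.0.16 in R 4.3.3, TMM scaling, 1 model of 4 group means), with Benjamini-Hochberg adjustment and a threshold of 0.05. The code was tested on simulated data. The alternatives were scaling by total counts or by DESeq2's size factors, DESeq2 1.42.0, no filter or a minimum of 10 reads, a fit of only the 6 samples of a comparison, a block for the sample letter, and leaving out single samples or the technical replicate with the label conflict. For the listed genes these were added after seeing the data.

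The members, gene lists and markers were chosen with earlier results of these data known. Named in the text are all 8 members, listed genes that passed against AL or else the most abundant of a list, marker genes, and the 2 genes most like each member with a mean of at least 100 normalized counts (log2 CPM, prior count 2). One result of this search is not reported here. Symbols came from supplementary tables that pair 2043 of 13050 tested features. Promoters are from RefSeq (GRCr8), with entries for 6 of 8 members. Levels were not compared between genes because no transcript lengths were used.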

Additional observations from a re-analysis of the deposited data

How the results depend on the processing

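The call of Abca3 in F3 against AL (1 member) held under every alternative that keeps all samples and fell to 0 when sample i of AL, or sample i or k of F3, was dropped, so that the count ranged from 0 to 1 when single samples were left out. In F1 against AL the count of members rose from 0 to 1 (Abca8a) with total counts, with DESeq2, without a filter, with at least 10 reads in each sample and with the sample letter as a replicate block, and ranged from 0 to 1 with single samples left out. The joint test rose from 0 to 1 with total counts and with DESeq2 (Abca3) and with the replicate block (Abca8a), and ranged from 0 to 1 with single samples left out (Abca3, without F2 sample j). The other comparisons kept 0 members under each alternative run. Of the listed genes, 2 passed in F3 against AL, 1 did without a filter, and 0 to 2 did with single samples left out; in F1 against AL 0 to 1 did. Why these counts moved was not tested.

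Of 477 recomputed LFCs of members against AL, 19 changed sign, 7 passed the threshold where the reported value had not (Abca8a in F1) and 3 no longer passed (Abca3 in F3). Of 477 between days of fasting, 17 changed sign. No sign change concerned a value that had passed. With total counts the LFC of Abca2 in F2 against AL was -0.021. The other sign changes against AL came with single samples left out. The LFC against AL then ranged for Abca1 from -0.21 to 0.14 in F2 and from -0.012 to 0.11 in F3, for Abca2 from -0.033 to 0.0077 in F1 and from -0.035 to 0.084 in F2, for Abca5 from -0.074 to 0.59 in F2, and for Abca8a from -0.30 to 0.33 in F2. For Abcg1 it ranged from -0.16 to 0.26 in F2 and from -0.34 to 0.077 in F3, and for Abcg4 from -0.79 to 0.44 in F1, from -0.83 to 0.27 in F2 and from -0.46 to 0.60 in F3.

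Same-lettered samples of different groups deviated together only weakly (r from -0.02 to 0.14, median 0.03, over 18 pairs). Pairs of different letters had r from -0.19 to 0.20, with a median of -0.03 over 36 pairs. The main fit used no block for the letter, and these values do not settle whether the letters mark pairs. With the replicate block 748, 129 and 1511 genes passed in F1, F2 and F3 against AL, beside 856, 112 and 1572 without it. Abcg4, with 3 to 16 reads, was not tested under the filter of 10 reads, and its values and those of Abca5 and Abca8a are limited by depth.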
